A study of Mus musculus with 6 samples.

Results

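The genes described here are 10 immediate early genes, Fos, Fosb, Jun, Junb, Jund, Egr1, Ier2, Nr4a1, Dusp1 and Atf3, in embryonic mouse hearts with and without loss of the RNA-binding proteins RBPMS and RBPMS2 in cardiomyocytes. They were chosen by symbol, and all 10 were found among the 48709 genes of the deposited table. RNA of C57BL6/J hearts was sequenced from 3 control libraries, homozygous for floxed alleles of both genes (RBPMS flox/flox, RBPMS2 flox/flox), and from 3 double knockout libraries with the same alleles and a Cre transgene (XML Cre pos). The series describes the controls as littermates and the deletion as specific to cardiomyocytes. The sources used here do not give the promoter behind the name XML, the embryonic day or the number of animals per library. No group carried Cre without the floxed alleles, so effects of Cre and of the gene loss cannot be told apart.

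Immediate early genes are transcribed within minutes of a growth factor, hormone, calcium or stress signal, without the need for new protein. The signal reaches their promoters mainly through MAP kinases, which act on serum response factor and its partners, and through CREB, which binds the cyclic AMP response element (CRE). Fos and Jun family proteins pair through leucine zippers into the transcription factor AP-1, Egr1 and Nr4a1 are DNA-binding factors of other families, and Dusp1 encodes a phosphatase that switches MAP kinases off again. In the heart these genes are known to respond to stretch, hypertrophic agonists and ischaemia, and in many tissues also to handling after removal. The sources used here do not say how long each heart was kept before RNA isolation.

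The promoters of 5 members are shown. Those of Fos, Nr4a1, Dusp1 and Atf3 are 4 of the 6 in which a search found the core of the CRE, and that of Jun, the member nearest to the threshold below, held no match in these 150 bases. Each line holds the 150 bases before the transcription start, from RefSeq (GRCm38.p6), read along the gene's strand. Capitals mark any match, on either strand, to the CRE (TGACGTCA), its core (TGACG, which also lies inside the CRE), the AP-1 site (TGANTCA), the EGR site (GCGNGGGCG), the TATA box (TATAAA) or the CArG box bound by serum response factor.
Fos, chr12:85473740-85473889, plus strand: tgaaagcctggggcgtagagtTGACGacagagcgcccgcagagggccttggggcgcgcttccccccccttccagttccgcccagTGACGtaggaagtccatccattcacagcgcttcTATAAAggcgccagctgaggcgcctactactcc
Jun, chr4:95052223-95052372, minus strand: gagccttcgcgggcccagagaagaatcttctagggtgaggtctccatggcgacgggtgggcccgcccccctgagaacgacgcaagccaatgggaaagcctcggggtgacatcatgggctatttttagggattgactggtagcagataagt
Nr4a1, chr15:101266696-101266845, plus strand: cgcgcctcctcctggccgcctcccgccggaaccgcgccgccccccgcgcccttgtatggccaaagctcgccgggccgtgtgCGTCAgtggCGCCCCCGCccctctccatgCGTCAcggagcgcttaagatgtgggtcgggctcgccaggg
Dusp1, chr17:26508473-26508622, minus strand: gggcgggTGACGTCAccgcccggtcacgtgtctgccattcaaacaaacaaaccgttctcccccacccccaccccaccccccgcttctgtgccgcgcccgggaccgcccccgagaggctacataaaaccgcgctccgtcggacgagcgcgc
Atf3, chr1:191183334-191183483, minus strand: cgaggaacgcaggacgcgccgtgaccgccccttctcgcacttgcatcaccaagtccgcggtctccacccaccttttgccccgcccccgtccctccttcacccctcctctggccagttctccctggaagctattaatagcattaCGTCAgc

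RefSeq promoters of 300 bases (250 before and 50 after the start) were held for 8 of the 10 members. The CRE core was in 6 of these 8, against 20.8% of all 32851 promoters in that table. A full CRE was in 1, that of Dusp1, against 1.79% of all promoters. The EGR site was in 2 of the 8 (5.55% of all), the TATA box in 2 (13.6%), the AP-1 site in 0 (7.81%) and the CArG box in 0 (1.63%). A match is a description of letters, and elements farther from the start lie outside these windows.

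The libraries were alike in size. Deposited values are normalised read counts, rounded to whole numbers, with totals of 19770390 to 20215282, and from the scaling they stand for an estimated 18760330 to 21992758 reads. The targeted genes followed the labels: Rbpms was at 3787 ± 210.5 in controls against 697 ± 25.6 in knockouts (mean ± SD, n = 3 libraries each, limma adjusted p = 6.83e-13), and Rbpms2 at 2577 ± 136 against 1454 ± 211 (limma adjusted p = 2.92e-05). The call of Rbpms2 was lost without both libraries numbered 3 (adjusted p = 0.142). Libraries numbered 3 had a male pattern of Xist and Eif2s3y in both genotypes, and the other 4 a female one. All 10 genes of a cardiomyocyte marker list were present, with summed values of 655214 to 694480 in controls and 547039 to 625859 in knockouts. Much of that difference was Myh6, with means of 139844 and 79505 (limma adjusted p = 1.68e-05), the only gene of the list past the threshold. Of the 10 genes 7 lay below 0 and 3 above. Because tissue was sequenced in bulk, fewer cells of a type and less RNA per cell cannot be told apart.

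None of the 10 immediate early genes passed the genotype test. The test was limma on log2(value + 1), with Benjamini-Hochberg adjustment over 26747 genes and an adjusted p under 0.05 as the threshold. Of all genes tested, 4.86% passed it, 2.31% higher and 2.55% lower in the knockout. The lowest adjusted p among the members was that of Jun, at 0.0749. At an unadjusted p under 0.05 there were 3 members (Jun, Jund and Egr1), where 18.7% of all genes lay. Libraries of the genotypes did not overlap in 3 members (Jun, Jund and Nr4a1), where 21.7% of all genes had no overlap. The members' log2 fold changes, knockout minus control, ranged from -0.31 to 0.57, with 4 above and 6 below 0. Their median was -0.04, beside 0.02 over all genes tested.

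**Figure D1:**
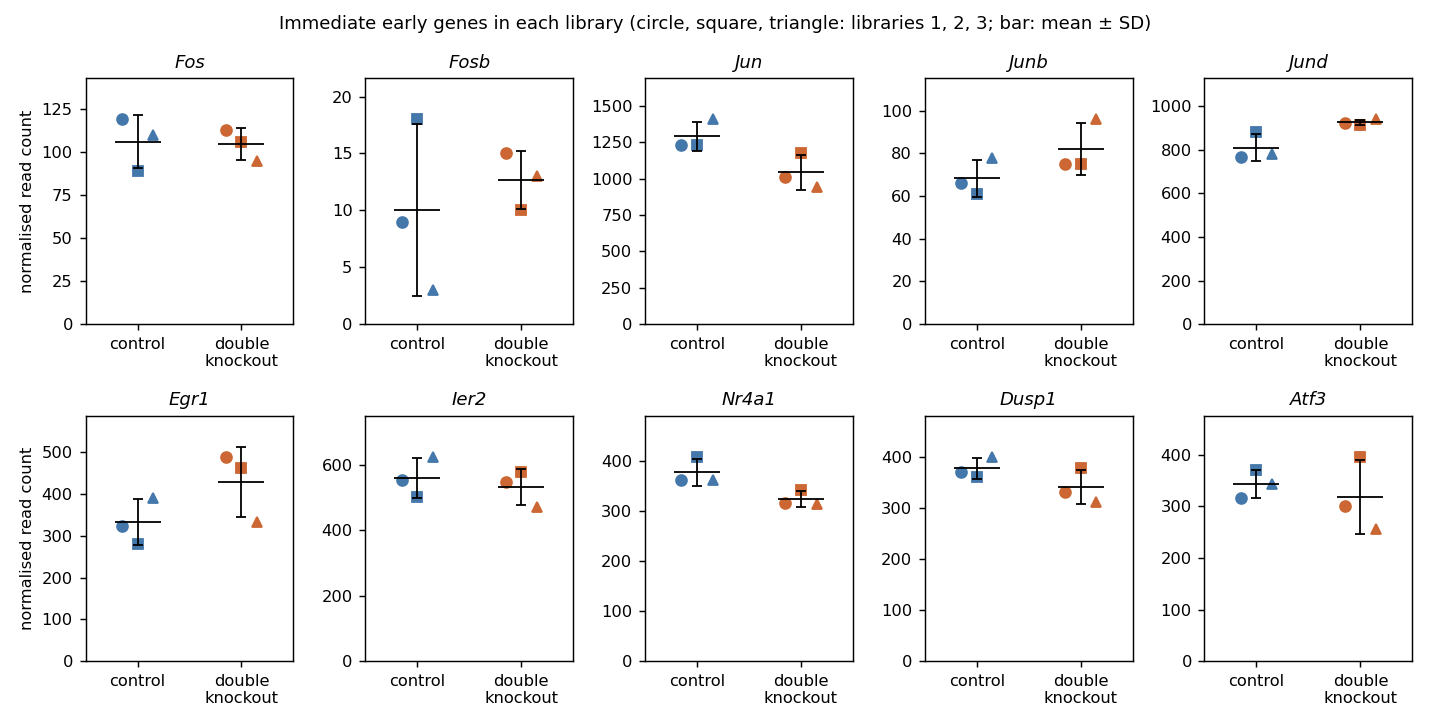
Normalised read counts (vertical axes, each from 0) of the 10 genes in every library, by genotype; symbols mark library numbers 1 to 3, and bars the mean ± SD of 3 libraries. Jun and Nr4a1 are lower in each knockout than in each control library, Jund is higher in each, and the other 7 genes overlap.

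Fos encodes the short-lived partner of Jun proteins in AP-1. Controls 1 to 3 had 119, 89 and 110 normalised read counts, and knockouts 1 to 3 had 113, 106 and 95. The genotypes covered the same range. Their means, 106 ± 15.4 and 105 ± 9.07, differed by -0.01 ± 0.16 (log2 fold change ± SE, limma adjusted p = 0.983), with a 95% interval from a 0.786-fold to a 1.25-fold level in the knockout.

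Fosb, the other Fos family gene among the members, had few reads. It had 9, 18 and 3 in controls and 15, 10 and 13 in knockouts, so both its lowest and its highest library were controls. The control SD of 7.55 was above the 3.16 that counting alone gives at this mean, and the log2 fold change of 0.57 ± 0.46 (limma adjusted p = 0.547) had an interval from 0.752-fold to 2.91-fold. Without control 3 the difference was -0.03, of the opposite sign. At this depth neither a rise nor a fall of Fosb could be resolved.

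Jun, the founding member of its family and a transcriptional activator in AP-1, came nearest to the threshold. Its values of 1233, 1232 and 1407 in controls were above those of 1013, 1176 and 941 in knockouts, with control 3 the highest and knockout 3 the lowest. Means were 1291 ± 101 and 1043 ± 120.4. The difference was -0.31 ± 0.10 on the log2 scale (limma adjusted p = 0.0749), with an interval from 0.701-fold to 0.928-fold. The size rested on the libraries numbered 3. Without both of them it was -0.18 (adjusted p = 0.623), and without knockout 2, the highest knockout, it was -0.40 and passed (adjusted p = 0.0235). The call was also made with no filter on low values (adjusted p = 0.0367). Junos, annotated on the opposite strand and overlapping Jun, had only 10 to 18.

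Junb, a family member with weaker activating capacity than Jun, was expressed at a low level. It had 66, 61 and 78 in controls and 75, 75 and 96 in knockouts. Control 3 lay above knockouts 1 and 2, and knockout 3 was the highest of all. The log2 fold change was 0.26 ± 0.18 (limma adjusted p = 0.472), with an interval from 0.921-fold to 1.55-fold. Junb overlaps Prdx2 on the other strand, a far more abundant gene at 6534 to 7881. The sources used here do not give the strand setting of the counting.

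Jund, the family member known for steady expression in resting cells, went the opposite way to Jun. Its values were 769, 880 and 780 in controls and 924, 915 and 940 in knockouts. Each knockout lay above each control, although the gap between control 2 and knockout 2 was small. Means were 810 ± 61.2 and 926 ± 12.7. The difference was 0.20 ± 0.09 on the log2 scale (limma adjusted p = 0.234), and the interval ran from 1.01-fold to 1.30-fold. Of the 9 members with a mean of at least 50 it varied least within a genotype.

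Atf3 encodes a stress-induced bZIP factor that pairs with Jun proteins and often represses its targets. It had 316, 371 and 343 in controls and 300, 396 and 256 in knockouts. Knockout 2 was the highest and knockout 3 the lowest of all libraries, so the knockouts spanned the controls. The log2 fold change was -0.13 ± 0.14 (limma adjusted p = 0.638), with an interval from 0.746-fold to 1.11-fold. Without knockout 3 it was 0.01. Atf4, its more abundant relative and an effector of the integrated stress response, averaged 2383 ± 254 in controls and 2335 ± 36.5 in knockouts (limma adjusted p = 0.909).

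Egr1, a zinc finger factor and a classical readout of ERK signalling, had the largest difference among the 9 members with a mean of at least 50. It was at 324, 281 and 390 in controls and at 488, 461 and 333 in knockouts. Knockouts 1 and 2 were above all controls, and knockout 3 was below control 3. The log2 fold change was 0.36 ± 0.15 (limma adjusted p = 0.205), with an interval from 1.03-fold to 1.60-fold. Without knockout 3 it rose to 0.53 (adjusted p = 0.0756), without both libraries numbered 3 to 0.65 (adjusted p = 0.142), and without control 2 or knockout 1 it was 0.25 (adjusted p = 0.437 and 0.422). Egr2 and Egr3, related factors, had at most 10 in any library.

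Nr4a1, an orphan nuclear receptor induced by calcium and cyclic AMP signals, had 361, 408 and 361 in controls and 316, 342 and 314 in knockouts. Each knockout was below each control. Means were 377 ± 27.1 and 324 ± 15.6. The difference was -0.22 ± 0.11 on the log2 scale (limma adjusted p = 0.273), with an interval from 0.740-fold to 1.00-fold. Its relative Nr4a2, named outside the rule for genes to print, had 72, 71 and 57 in controls and 82, 87 and 82 in knockouts (0.33, adjusted p = 0.312). Values of these paralogs thus lay on opposite sides of 0, neither of them past the threshold.

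Ier2 encodes a small nuclear protein of the early growth factor response. It had 554, 502 and 625 in controls and 549, 578 and 471 in knockouts. The genotypes overlapped, and the log2 fold change was -0.07 ± 0.11 (limma adjusted p = 0.756), with an interval from 0.814-fold to 1.11-fold. Dusp1, the phosphatase that inactivates p38, JNK and ERK, had 372, 361 and 401 in controls and 332, 378 and 313 in knockouts. Knockout 2 lay among the controls and the other knockouts below them. The log2 fold change of Dusp1 was -0.15 ± 0.11 (limma adjusted p = 0.473), with an interval from 0.770-fold to 1.05-fold. Ergic1 (3138 to 3869) and Gm8225 (664 to 895), both above Dusp1 in every library, overlap its annotated span on the other strand. As for Junb, the strand setting of the counting is not given.

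**Figure D2:**
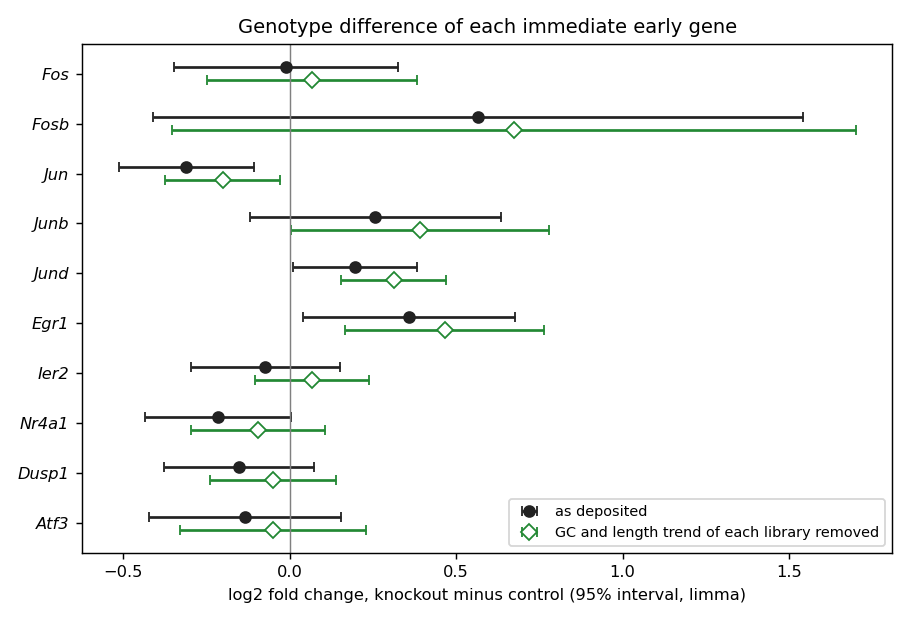
Log2 fold change, knockout minus control, of each gene with its 95% interval from limma, on the values as deposited (filled circles) and with each library's GC and length trend removed (open diamonds). As deposited, the intervals of Jun, Jund and Egr1 exclude 0 before adjustment for the number of genes; every diamond lies to the right of its circle.

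Base composition moved with these results. All 10 members were GC-rich, with 51.9% to 67.2% GC in the longest transcript, against a median of 49.6% over the 11905 coding genes whose mean was 50 or more. Across those genes, which are not replicates, Spearman's rho of GC content with the deviation from the mean of all libraries was 0.22 to 0.40 in the controls and -0.59 to 0.13 in the knockouts. With the trend of each library on GC and length removed, all members shifted upwards, 6 lay above and 4 below 0, and their median was 0.07 beside 0.03 over all genes. Jund, the most GC-rich member at 67.2%, then passed at 0.31 ± 0.07 (limma adjusted p = 0.0208), while Egr1 was at 0.47 (adjusted p = 0.0746), Junb at 0.39 (adjusted p = 0.253) and Jun at -0.20 (adjusted p = 0.180). Nr4a1 was at -0.09 (adjusted p = 0.632), and Fos and Ier2 changed sign, both to 0.07. Since the GC trend went with genotype, its removal may also take away part of a genotype difference, which was not tested.

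Egr1 and Atf3 were more variable between libraries of a genotype than most genes. Pooled within genotype, the SD of log2(value + 1) had a median of 0.12 over the 13805 genes whose mean was 50 or more, and 6 of the 9 members at that level lay above it. That count was not tested, and the percentiles compare with genes of every level from that mean upwards. Egr1, at 0.27, stood at percentile 92.2 and Atf3, at 0.24, at percentile 89.1. Junb (percentile 80.0) and Fos (percentile 75.5) were also above the median, but both are low genes, for which counting adds to the spread. Jund (percentile 18.1) and Nr4a1 (percentile 24.6) were steadier than most genes.

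Knockout 3 and control 3 often stood at opposite ends. Knockout 3 was the lowest knockout library in 7 of 10 members, and the lowest of all 6 libraries in 5 of them: Jun, Ier2, Nr4a1, Dusp1 and Atf3. Junb and Jund, the most GC-rich members, were at their highest there. Control 3 was the highest control in 5 members (Jun, Junb, Egr1, Ier2 and Dusp1), and the summed value of the 10 genes was 4498 in control 3 and 3772 in knockout 3, the highest and the lowest of the 6 libraries. Knockout 3 also had the lowest rho with GC content (-0.59) and control 3 the highest (0.40). Both libraries were of male pattern, so sex does not separate them. The part of base composition in these deviations was not tested.

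**Figure D3:**
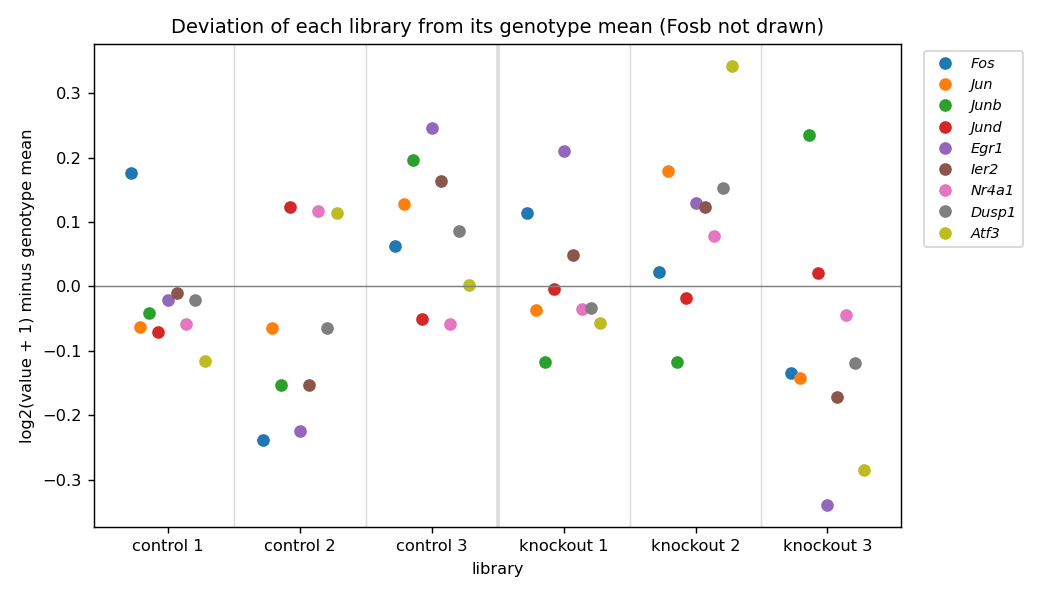
Deviation of log2(value + 1) from the mean of its genotype (vertical axis) for 9 members in each of the 6 libraries; Fosb, at 3 to 18 normalised read counts, is not drawn. In knockout 3 the points of 7 genes lie below 0 and those of Junb and Jund above it; control 3 shows 7 genes above 0.

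Levels of different members can be compared only per length. As normalised read count per kilobase of merged exons, averaged over all 6 libraries, Jund stood highest at 520.4, above Jun at 366 and Ier2 at 359. Jund exceeded Jun in 6 of 6 libraries. The ranges of Jun and Ier2 overlapped within each genotype, and Jun was higher in 3 of 6 libraries. These 3 were the controls, and in each knockout Jun was below Ier2. Atf3 (153), Dusp1 (109), Nr4a1 (99.8) and Egr1 (84.6) followed, and Dusp1, Nr4a1 and Egr1 exchanged places between libraries. Nr4a1 and Egr1 did so only in knockouts, and their ranges in controls did not overlap. Fos, at 44.8, was above Junb, at 32.7, in 5 of 6 libraries, and Fosb was far below at 1.8. Fos, the best known of these genes, was therefore near the bottom of the order in hearts of both genotypes. Per kilobase of the longest transcript the order was the same, with Dusp1 at 155 and Nr4a1 at 137 nearer to Atf3, at 166.5.

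By the rule for genes of like pattern, the mean centred profile of the 9 members with a mean of at least 50 was compared with 11904 other coding genes over the 6 libraries. The highest Pearson's r were those of Pex16 (0.996), Gpn2 (0.987), Lsm10 (0.983), Mxd3 (0.982) and Gps2 (0.981). Pex16, which takes part in peroxisome assembly, had 140, 122 and 187 in controls and 149, 183 and 104 in knockouts. Like the members' mean profile, it was lowest in knockout 3 and high in control 3 and knockout 2. These r describe 6 libraries that share the GC trend above, are the highest of many candidates, and carry no test.

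Other genes of the immediate early response and its wiring were taken from lists drawn up by function. Over all genes tested, 2.31% passed higher and 2.55% lower, and 18.7% had an unadjusted limma p under 0.05. The counts in these lists and in those further below are to be read beside those shares. Of 19 further immediate early transcription factors, 0 were higher and 1 was lower in the knockout (median 0.00). Klf10, named after its values were seen, was at 0.34 (limma adjusted p = 0.055) and made 1 higher call in 8 of the 19 alternatives, among them both rescalings, removal of the GC trend and the fit without control 2. Of 19 immediate early effectors, 4 were higher and 1 lower (median 0.05). Gadd45g, an effector also named after its values were seen, was at -0.47 (limma adjusted p = 0.0616). It was called lower in some alternatives, among them the replicate block and the fit without knockout 2. Among 15 AP-1 and bZIP partners 0 passed in either direction (median 0.01), with 1 at an unadjusted p under 0.05. Among 21 upstream kinases 0 passed (median -0.04), with 5 at an unadjusted p under 0.05. Of 16 MAP kinase phosphatases and feedback inhibitors, 0 were higher and 2 lower (median 0.06), and of 19 factors and cofactors acting on these promoters, 0 were higher and 1 lower (median -0.02).

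**Figure D4:**
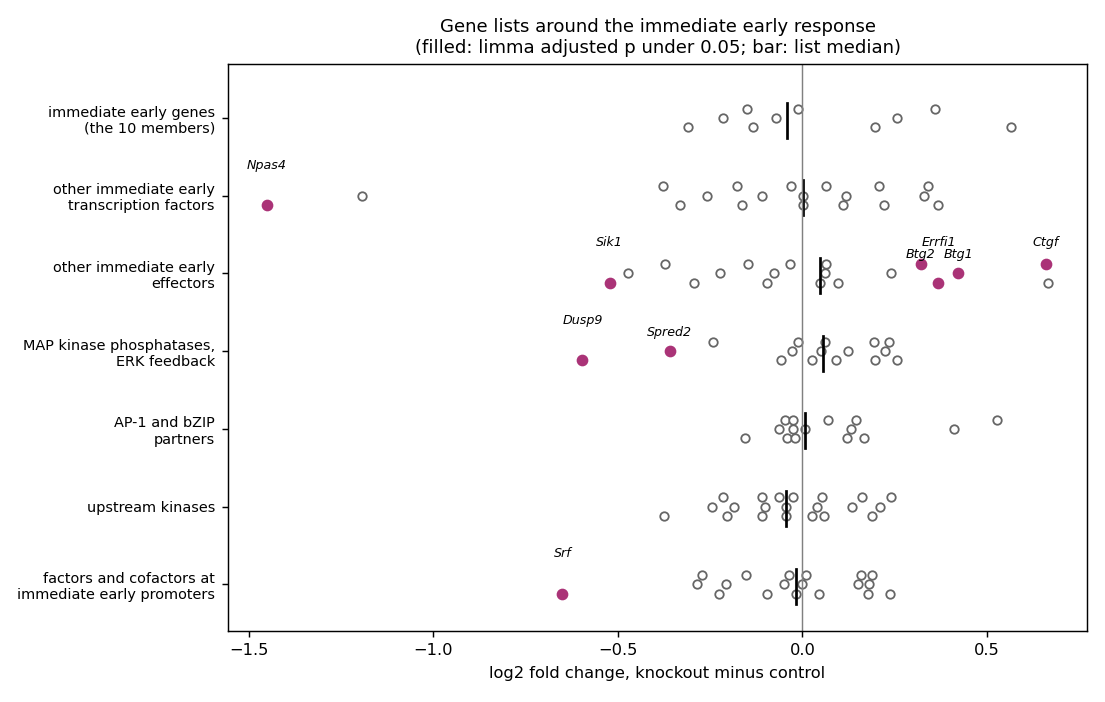
Log2 fold change, knockout minus control, of every tested gene in 7 lists; filled, labelled points passed at an adjusted p under 0.05, open points did not, and bars are list medians. The 10 members hold no filled point, while Npas4 and Srf are the lowest called genes and Ctgf the highest.

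Srf, serum response factor itself, fell. It had 2474, 2962 and 2792 in controls and 1844, 1612 and 1779 in knockouts. No libraries overlapped, and the log2 fold change was -0.65 ± 0.09 (limma adjusted p = 0.0002). Its cofactor Mkl1 had 539 ± 30.6 and 442 ± 36.1 (adjusted p = 0.112), and Myocd 1849 ± 80.8 and 1838 ± 420.2 (adjusted p = 0.922). Neither of these passed the threshold, and both were named outside the rule. Fos, Egr1 and Junb, textbook targets of serum response factor, stood at -0.01, 0.36 and 0.26 beside this fall. These 3 do not stand for all its targets, and targets outside the members were not surveyed as a set. Among the smooth muscle markers given below, Cnn1 was at -1.78 (limma adjusted p = 0.00452), Smtn at -0.49 (adjusted p = 0.00164) and Tagln at -0.59 (adjusted p = 0.163). Of that list 5 genes lay below 0 and 1 above. A link between the level of Srf and that of any target was not tested.

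Npas4, an activity-dependent factor best known from neurons, fell. Controls had 205, 257 and 155, and knockouts 92, 63 and 67. Each knockout had less than each control, and the log2 fold change was -1.45 ± 0.19 (limma adjusted p = 0.00013). Sik1, a salt-inducible kinase gene under CREB control, fell from 1371 ± 110.4 to 957 ± 126 (-0.52, adjusted p = 0.00376), a call lost without knockout 3 (adjusted p = 0.0519). Arc, another activity-dependent gene, had 26 ± 5.57 and 20.3 ± 6.66 (adjusted p = 0.529) and was named after its values were seen.

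The effectors that rose were Ctgf, Btg1, Errfi1 and Btg2. Ctgf, a matricellular protein gene also driven by YAP, went from 1752, 1956 and 1699 to 2628, 3260 and 2685 (0.66, limma adjusted p = 0.000286). Btg1 and Btg2, a pair of antiproliferative genes, rose from 1338 ± 134 to 1795 ± 200.4 (0.42, adjusted p = 0.017) and from 750 ± 27.5 to 938 ± 67.4 (0.32, adjusted p = 0.0439); Btg2 lay outside the rule for genes to print. Errfi1, a feedback inhibitor of ErbB receptors, rose from 348 ± 19.5 to 449 ± 13.2 (0.37, adjusted p = 0.038). The calls of Btg1, Errfi1 and Btg2 were each lost without control 1, control 3, knockout 2 or knockout 3, that of Errfi1 also without knockout 1 and that of Btg2 without control 2. Their adjusted p then reached 0.143, 0.196 and 0.227.

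Of the 16 MAP kinase phosphatases and feedback inhibitors, 10 lay above 0 and 6 below, and the 2 that passed were lower. Dusp6 (0.22, limma adjusted p = 0.192) and Spry4 (0.24, limma adjusted p = 0.198) were among those above 0. Dusp5 (-0.24, limma adjusted p = 0.258) was among those below. Dusp6, Spry4 and Dusp5 were named after their values were seen. Dusp9, a cytoplasmic ERK phosphatase, fell from 316, 363 and 294 to 244, 201 and 198 (-0.60, limma adjusted p = 0.00737), a call lost without control 1 (adjusted p = 0.0511) or knockout 3 (adjusted p = 0.0651). Spred2, an inhibitor of the RAS to ERK step, fell from 646 ± 3.46 to 506 ± 58.9 (-0.36, adjusted p = 0.0437), a call lost without any 1 of controls 1, 2 and 3 or knockouts 2 and 3 (adjusted p up to 0.188). Among the upstream kinases Rps6ka2, a ribosomal S6 kinase gene, was at 4172 ± 147 in controls and 3988 ± 36.7 in knockouts (adjusted p = 0.701). Atf7, the other abundant AP-1 partner besides Atf4, had 1129 ± 109.8 and 1233 ± 39.7 (adjusted p = 0.461).

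Without both libraries numbered 3, none of the listed genes named above as rising or falling passed the threshold, in a fit of 2 against 2 libraries that called 14 higher and 24 lower genes over the whole table. Npas4 was then at -1.58 (adjusted p = 0.0757), Srf at -0.65 (adjusted p = 0.153) and Ctgf at 0.66 (adjusted p = 0.163). Their sizes were close to those with all libraries.

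Heat shock genes, another group that responds to stress and handling, had 0 higher and 1 lower of 10 (median -0.09). With the GC and length trend removed there were 3 lower, Hspe1 and Hsph1 besides Hspb1, and without control 2 there were 2, Hspe1 besides Hspb1. The faller was Hspb1, a small heat shock protein gene of muscle, from 6175 ± 394 to 4250 ± 377 (-0.54, limma adjusted p = 0.000965). The summed values of this list were 88798 to 89967 in controls and 81861 to 87398 in knockouts, without overlap. Hspa8, Hspd1 and Hsp90aa1 made up most of these sums. Of the 10 genes 7 lay below 0 and 3 above. Those above were Hspa1b (0.43, limma adjusted p = 0.225), Hspa1a (0.32, limma adjusted p = 0.403) and Hsp90aa1 (0.16, limma adjusted p = 0.330).

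Of the marker lists of other cell types, those of smooth muscle and of leukocytes had sums that did not overlap between genotypes, and the sums of the others overlapped. Of 6 smooth muscle markers 0 were higher and 2, Cnn1 and Smtn, lower, with sums of 14272 to 15411 in controls and 6971 to 10865 in knockouts. The means of Cnn1 (5238 and 1569) and Tagln (6914 and 4708, not past the threshold) differed most. Pdgfrb lay above 0 (0.16, limma adjusted p = 0.514) and the other 5 below. Myh11 and Rgs5 had at most 38 in any library. The cells in which Cnn1 and Tagln were transcribed cannot be told from bulk tissue, so the sums do not count smooth muscle cells. Of 8 macrophage and leukocyte markers 1, Ptprc, was higher, with sums of 371 to 534 and 557 to 791. Of 8 endothelial markers 1, Emcn, was higher (22549 to 27193 and 24362 to 29468). Of 6 epicardial markers 1, Krt19, was higher (4793 to 5739 and 4674 to 5907), but 4 of the 6 lay below 0 (median -0.12). Passing were 0 of 8 fibroblast markers (21478 to 29970 and 19681 to 39130) and 0 of 8 erythroid markers (48895 to 134429 and 102659 to 145419). Of the cardiomyocyte markers 1 of 10, Myh6, was lower. No marker was at 0 in any library. Immediate early genes are expressed in many of these cell types, and the part of cell composition in their levels was not tested.

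The members lie on several chromosomes (GENCODE M21, GRCm38, the assembly of mm10), and all are annotated as protein-coding. Jun (chromosome 4, 95049034 to 95052222, minus strand), Jund (chromosome 8, 70698949 to 70700616, plus strand) and Ier2 (chromosome 8, 84661331 to 84662852, minus strand) are single-exon genes. Junb also lies on chromosome 8 (84974484 to 84978718, minus strand). Egr1 lies on chromosome 18 (34859823 to 34864984, plus strand), Fos on chromosome 12 (85473890 to 85477273, plus strand) and Fosb on chromosome 7 (19302696 to 19310051, minus strand). Nr4a1 lies on chromosome 15 (101254269 to 101274795, plus strand), Dusp1 on chromosome 17 (26505590 to 26562128, minus strand) and Atf3 on chromosome 1 (191170296 to 191218039, minus strand).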

How the data were processed

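PolyA RNA of 6 heart libraries was sequenced as single-end reads of 75 bp from 500 ng of total RNA with a stranded kit, per the labels' protocols. Named in the submitters' processing notes, without roles, are featureCounts 1.5.0, STAR 2.4.2a, Trimmomatic, DESeq, DESeq2 and mm10; the sources used here do not give annotation or strand settings. The deposited values are a score: read counts that the authors scaled by 1 factor per library and rounded, as the values show (in 3 columns, evenly spaced whole numbers under 400 never occur). Rounding keeps single reads from being recovered, so no count model was used.

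The 26747 genes whose mean reached 1 in either genotype entered a limma fit (3.58.1, under R 4.3.3) of log2(value + 1), a scale that understates changes of low genes, with a variance trend and robust moderation, two-sided, Benjamini-Hochberg adjusted over all genes tested. Intervals are unadjusted 95% intervals of that fit. The script was tested on simulated data. GC content and length came from GENCODE M21; splines of 5 degrees of freedom removed their trend. Sources do not say that libraries came from separate animals, so the p-values cover only how these libraries spread. Libraries numbered 3 differed from the others in sex pattern, so this spread is not technical alone. Between libraries 1 and 2 of a genotype it may be technical.

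The members, lists and tests were chosen with earlier results of these data known. The rule for genes to print was all members, the targeted genes, up to 4 genes past the threshold per list or else the 2 most abundant, and the 5 genes of most like pattern; 1 gene that the rule names is not reported here. Pairs of libraries with the same number correlated at 0.05, 0.07 and 0.33 in their deviations, so the numbers were not taken to pair them. The 19 alternatives covered pseudocount, filter, scaling, moderation, weights, GC trend, block and left-out libraries.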

Additional observations from a re-analysis of the deposited data

How the results depend on the processing

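No member was called higher or lower in most of the 19 alternatives. The exceptions were 1 lower call (Jun) with no filter on low values, 1 higher call (Jund) with the GC and length trend removed, with or without the replicate block (Jund adjusted p = 0.036 with it), and, with 1 library left out, 0 to 1 lower and 0 higher calls, the 1 being Jun without knockout 2. The replicate block alone left all members uncalled (lowest adjusted p = 0.108, Jun); it also ended the calls of Errfi1 (0.0665), Spred2 (0.0581) and Btg2 (0.0843), and called 674 genes higher and 681 lower over the whole table. In that table no filter gave 963 higher calls; the fit without the robust option gave 144 higher and 206 lower, without the variance trend 96 and 73, and without both libraries numbered 3 gave 14 and 24. Leaving out 1 library gave 186 to 608 higher and 234 to 739 lower calls, the low totals being those without control 1, control 3 or knockout 3. Causes were not tested.

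Directions of Junb, Jund, Egr1, Jun, Nr4a1 and Dusp1 were the same in all 19 alternatives. Fos turned to 0.0024 and 0.0049 with the 2 rescalings, to 0.066 with the GC trend removed (with or without the block), 0.088 without both libraries numbered 3, 0.077 without control 1, 0.020 without control 3 and 0.056 without knockout 3. Ier2 turned to 0.067 with the GC trend removed, 0.095 without both libraries numbered 3, 0.0091 without control 3 and 0.013 without knockout 3. Fosb turned to -0.055 without both libraries numbered 3 and -0.029 without control 3, and Atf3 to 0.0096 and, without knockout 3, 0.0087. With the GC trend removed Atf4 was at 0.093 and Rps6ka2 at 0.012; Atf4 was also at 0.067 without both libraries numbered 3 and 0.056 without control 3. Calls of Btg1, Btg2, Sik1, Errfi1, Dusp9 and Spred2 were lost without the robust option (adjusted p of 0.0681 to 0.124), that of Spred2 also with both rescalings, and without the variance trend no call in the lists of immediate early genes, their wiring and heat shock genes was kept, nor that of Rbpms2 (adjusted p = 0.0819). Marker lists were not run under the alternatives. Over the 19 alternatives, further immediate early transcription factors had 0 to 1 higher and 0 to 1 lower calls (0 and 1 in the report), effectors 0 to 4 and 0 to 3 (4 and 1), phosphatases and feedback inhibitors 0 to 1 and 0 to 2 (0 and 2), factors and cofactors 0 and 0 to 2 (0 and 1) and heat shock genes 0 and 0 to 3 (0 and 1). AP-1 partners and upstream kinases had 0 calls in each. With 1 library left out in turn, Fos lay between -0.13 and 0.077, Fosb between -0.029 and 1.09, Ier2 between -0.15 and 0.013, Atf3 between -0.30 and 0.0087 and Atf4 between -0.096 and 0.056. Values of 10 or fewer, as in Fosb, stand for about as many reads, which limits what can be seen.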

Other observations

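The 2 abundant Jun family genes changed their ratio between libraries, a measure chosen after the values were seen and therefore given without a test. The value of Jund divided by that of Jun was 0.624, 0.714 and 0.554 in the controls (1 to 3), but 0.912, 0.778 and 0.999 in the knockouts. The ratio could not overlap between genotypes, because Jun was lower and Jund higher in each knockout than in each control. Its lack of overlap thus adds nothing to those of the 2 genes. The summed value of Jun, Junb and Jund was 2068, 2173 and 2265 in controls and 2012, 2166 and 1977 in knockouts, which overlapped. Jun has 55.5% GC and Jund 67.2%, and the ratio was at its lowest in control 3 and at its highest in knockout 3, the libraries at either end of the GC trend. The difference between the log2 fold changes of Jund and Jun was 0.51 on the values as deposited and 0.51 with the GC and length trend removed.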
